A study of Homo sapiens with 5 samples.

Results

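The RNAs described here were 10 listed long noncoding RNAs of HT1080 cells, taken by exact symbol. Of these, 9 had an entry among the 27189 genes of the tables, namely NEAT1, TUG1, GAS5, SNHG1, SNHG5, SNHG6, SNHG8, AGAP2-AS1 and TSC22D1-AS1. MALAT1 was not analysed here. They were chosen by their read counts and TPM in these same 5 libraries, so the levels and differences are a description and carry no test. HT1080 is a human fibrosarcoma line, and the cells were embedded for 24 h in type I collagen at 2 mg per ml. The study asked how cell density and the cytokines IL-6 and IL-8 change the transcriptome of tumour cells in a 3D matrix. LD was seeded at 10 cells per cubic mm with no cytokine, and HD at 50 cells per cubic mm with no cytokine. IL-6 and IL-8 were low-density matrices with recombinant IL-6 or IL-8 added, and RM was a low-density matrix with both at a ratio of 5 to 2. Each condition was 1 library of 1 cell line from 1 experiment, so no spread between replicates is known for any difference below.

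Long noncoding RNAs differ in where they act. NEAT1 stays in the nucleus and forms the scaffold of paraspeckles, bodies that hold RNA-binding proteins such as NONO and SFPQ. TUG1 is found in both the nucleus and the cytoplasm. GAS5, SNHG1, SNHG5, SNHG6 and SNHG8 are host genes of small nucleolar RNAs (snoRNAs), which guide the modification of ribosomal RNA and are cut out of the host's introns. The spliced exons of such hosts leave the nucleus, and many are short-lived because nonsense-mediated decay, which removes RNAs with early stop codons, degrades them during translation. Several of these hosts, like ribosomal protein genes, begin with a run of pyrimidines. AGAP2-AS1 and TSC22D1-AS1 lie antisense to the protein-coding genes AGAP2 and TSC22D1.

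The libraries held from 926376 reads at HD to 7118545 in LD. RNA5-8S5, a ribosomal RNA entry, took 76.9 to 79.6% of the reads in the 4 low-density libraries and 51.5% at HD. This left 1100967 to 1645539 reads on other genes at low density and 449661 at HD. Genes with a read numbered 13469 to 15080 at low density and 20113 at HD, the shallowest library. The 7 measured mesenchymal markers, among them VIM and CD44, were at 1 TPM or more in all 5 libraries, with a summed level of 2643 to 4564 TPM at low density and 746 TPM at HD. TPM (transcripts per 1000000) is a level corrected for transcript length. The labels call the source connective tissue epithelial cells. Of 4 epithelial markers measured, EPCAM and ESRP1 had no read at low density, and 3 and 1 read at HD. CDH1 had 0 to 6 reads at low density and 34 at HD, and KRT19 had 132 reads in LD and 6 to 35 in the others. The 5 blood and endothelial markers summed to 0.511 to 1.78 TPM at low density, where 3 or 4 of them were at 0 reads, and to 164 TPM at HD, where none was. HD thus stood apart in depth and in these markers, and their part in the HD values below was not tested.

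The bases around the start sites of 4 hosts and of both antisense RNAs were read for runs of pyrimidines. Each window runs 5′ to 3′ from 50 bases before to 50 bases from the RefSeq start on GRCh38.p14, and capitals mark the run of at least 5 C or T nearest to the start, read on the transcribed strand only.
SNHG5 (chr6:85678684-85678783, minus strand): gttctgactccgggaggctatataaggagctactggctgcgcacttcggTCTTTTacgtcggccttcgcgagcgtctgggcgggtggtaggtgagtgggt
SNHG8 (chr4:118278712-118278811, plus strand): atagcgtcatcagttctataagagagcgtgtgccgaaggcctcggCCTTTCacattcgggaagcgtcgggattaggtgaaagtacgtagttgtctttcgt
SNHG1 (chr11:62855836-62855935, minus strand): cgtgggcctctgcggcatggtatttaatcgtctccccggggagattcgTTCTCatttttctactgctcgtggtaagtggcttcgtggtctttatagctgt
GAS5 (chr1:173868996-173869095, minus strand): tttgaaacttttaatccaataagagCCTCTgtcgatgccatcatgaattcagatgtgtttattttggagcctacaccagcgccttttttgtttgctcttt
AGAP2-AS1 (chr12:57726190-57726289, plus strand): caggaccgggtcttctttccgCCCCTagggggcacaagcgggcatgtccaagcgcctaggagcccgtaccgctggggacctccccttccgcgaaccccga
TSC22D1-AS1 (chr13:44575846-44575945, plus strand): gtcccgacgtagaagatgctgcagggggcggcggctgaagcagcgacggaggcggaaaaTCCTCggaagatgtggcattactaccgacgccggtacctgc
In SNHG5, SNHG8 and SNHG1 the run held the annotated first base, as it did in 9.6% of 35116 RefSeq promoters of the same length. Counting the first base as 1, the run spanned bases -1 to 5 in SNHG5, -2 to 3 in SNHG1 and -5 to 1 in SNHG8. In SNHG8 only the last base of the run is thus transcribed. A run within 5 bases of the start, found in 3 of the 7 RNAs matched, was present in 35.7% of promoters. In GAS5 the nearest run ended 21 bases before the annotated start, and GENCODE places the start of GAS5 further downstream, outside this window. The GENCODE gene start of SNHG8 (118278709) lies upstream of its window, and those of SNHG5, SNHG1, AGAP2-AS1, TSC22D1-AS1 and TUG1 also differ from the RefSeq start. The first base of these RNAs therefore depends on the annotation used. The nearest run lay 25 bases before the start in AGAP2-AS1 and 9 bases after the first base in TSC22D1-AS1. TUG1, also matched in the table, had its nearest run 33 bases before the start.

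The 9 RNAs come from 9 separate loci. Positions were matched by symbol in GENCODE 29 on GRCh38, while the reads had been mapped to GRCh37. NEAT1 lies on the plus strand of chromosome 11 from 65422774 to 65445540 and TUG1 on the plus strand of chromosome 22 from 30969245 to 30979395. The hosts GAS5 (chromosome 1, 173863900 to 173868882), SNHG1 (chromosome 11, 62851988 to 62855914), SNHG5 (chromosome 6, 85660950 to 85678748) and SNHG6 (chromosome 8, 66921684 to 66926398) lie on the minus strand, and SNHG8 (chromosome 4, 118278709 to 118279823) on the plus strand. AGAP2-AS1 runs along the plus strand of chromosome 12 from 57726271 to 57728356, and all 2086 bases of it lie inside AGAP2, with 866 of its 1500 exonic bases (57.7%) in AGAP2 exons. TSC22D1-AS1 runs along the plus strand of chromosome 13 from 44575893 to 44580432 and shares 1255 of 4540 bases with TSC22D1, 469 of them exonic in both genes.

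Levels between genes were compared in TPM, rescaled to 1000000 per library. With the lengths behind the deposited TPM, SNHG5 was the most abundant of the 9 RNAs in every library, at 43.0 to 59.8% of their summed TPM, and ranked from 127 in LD to 564 at HD among all genes. The 9 RNAs summed to 1439 TPM in LD, 1110 with IL-6, 1099 with IL-8, 907 with RM and 440.4 at HD. As reads they were 0.175% of all reads outside RNA5-8S5 in LD, 0.173 to 0.203% in the other low-density libraries and 0.058% at HD.

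**Figure D1:**
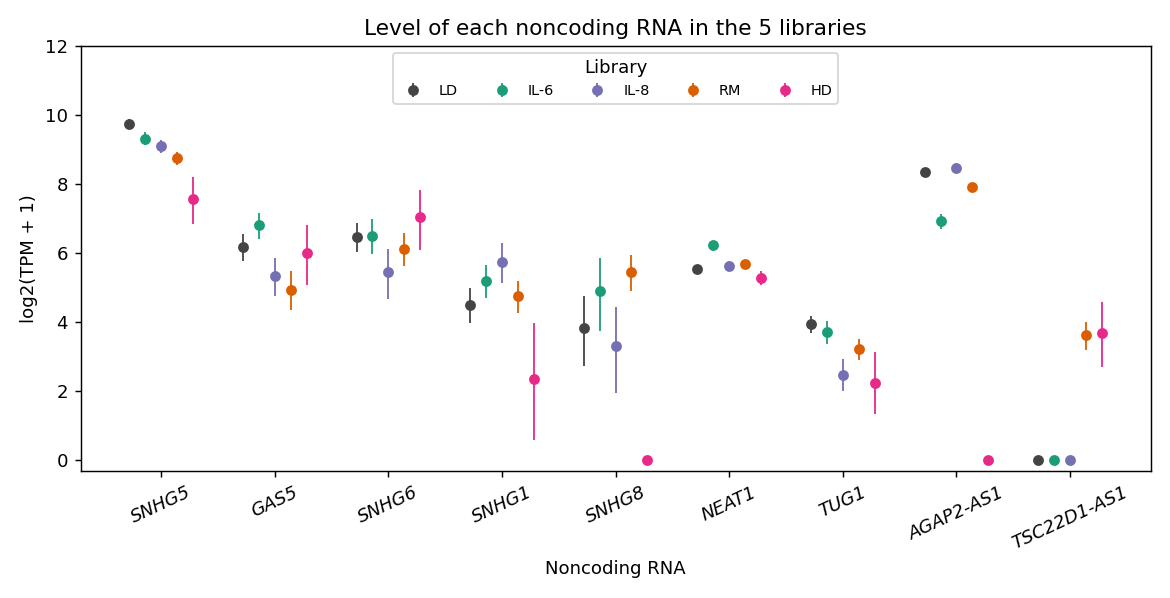
Level of the 9 noncoding RNAs as log2(TPM + 1) on the vertical axis, with 1 coloured point per library and bars for the exact 95% Poisson interval of the read count (counting error only, none drawn at 0 reads). SNHG5 is highest in every library, and AGAP2-AS1 and SNHG8 sit at 0 at HD while TSC22D1-AS1 sits at 0 in LD, IL-6 and IL-8.

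SNHG5, the host of SNORD50A and SNORD50B, had 507 reads in LD, 261 with IL-6, 242 with IL-8, 248 with RM and 19 at HD. Its level was 860.3 TPM in LD, 638 with IL-6, 547 with IL-8, 429.6 with RM and 189 at HD. LD was the highest library and HD the lowest, and the counting intervals of LD (787 to 939 TPM) and HD (114 to 296 TPM) did not overlap that of any other library. Against LD, its share of the reads outside RNA5-8S5 was 0.769-fold with IL-6 (95% exact interval 0.66 to 0.895), 0.701-fold with IL-8 (0.599 to 0.819), 0.561-fold with RM (0.48 to 0.654) and 0.137-fold at HD (0.0819 to 0.216). These intervals treat reads as independent molecules and cover counting error only, although the cDNA had been amplified. On the log2(TPM + 1) scale the SNHG5 difference from LD was -0.43 with IL-6, -0.65 with IL-8, just past -1 with RM and -2.18 at HD. SNHG5 was below LD under every other scaling tried, but after median-ratio normalization the difference was -0.17 with IL-8 and -0.23 with RM.

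GAS5, the host of a large cluster of box C/D snoRNAs, is known to accumulate when growth stops. Its level was 71.5 TPM in LD (57 reads), 111 with IL-6 (60), 39.3 with IL-8 (28), 29.6 with RM (26) and 63.3 at HD (12). In TPM, GAS5 was therefore highest with IL-6 alone and lowest with both cytokines. The counting interval of IL-6 (84.5 to 142 TPM) overlapped those of LD (54.1 to 92.6) and HD (32.7 to 111). That of RM (19.3 to 43.3 TPM) overlapped those of IL-8 (26.1 to 56.9) and HD, so the order is not settled. The read share against LD was 1.57-fold with IL-6 (1.08 to 2.3), 0.721-fold with IL-8 (0.442 to 1.15), 0.523-fold with RM (0.316 to 0.846) and 0.77-fold at HD (0.376 to 1.45), so only the intervals of IL-6 and RM exclude equal shares. The HD difference of -0.17 on the log2(TPM + 1) scale turned to 0.63 with CPM of all reads, where that of IL-6 was 0.50. The RM difference of -1.24 became -0.32 after median-ratio normalization. Over the 5 libraries, and among 3596 other genes with at least 10 reads in each, the log2(TPM + 1) profiles nearest to that of GAS5 by Euclidean distance, after centring, were ARHGAP5 (0.32), TRAK1 (0.40) and CDK4 (0.43). These are the closest of many genes to a GAS5 profile of 12 to 60 reads per library, and the match was not tested. ARHGAP5 was at 1.37 to 6.93 TPM, where the added 1 weighs on its profile.

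SNHG6, the host of SNORD87, was at 87.4 TPM in LD (47 reads), 89.4 with IL-6 (34), 42.4 with IL-8 (17), 69.2 with RM (36) and 130.1 at HD (12). It was lowest with IL-8, with a read share of 0.531-fold that of LD (0.286 to 0.942). In RM and HD the read shares were 0.879-fold (0.553 to 1.39) and 0.934-fold (0.451 to 1.79), and the log2 difference from LD changed sign with the scaling, from -0.34 to 0.40 with RM and from -0.095 to 0.88 at HD. SNHG6 and GAS5 were the hosts whose HD read share had an interval that included that of LD on at least 10 reads.

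SNHG1, whose introns also encode a cluster of box C/D snoRNAs, had 32 reads in LD, 37 with IL-6, 26 with IL-8, 38 with RM and 2 at HD. In TPM these were 21.8, 35.7, 52.4, 26.0 and 4.12. The highest TPM, with IL-8, came from fewer reads than in LD, and the transcript length implied by the TPM was shorter there, at 490 bases against 1066. The read share of SNHG1 was 1.19-fold that of LD with IL-8 (0.683 to 2.07) against a log2(TPM + 1) difference of 1.23. In IL-6 the share was 1.73-fold (1.05 to 2.87), with RM 1.36-fold (0.829 to 2.25) and at HD 0.229-fold (0.0266 to 0.897), the last on 2 reads, under the floor of 3 reads set for detection.

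SNHG8, the host of SNORA24, a box H/ACA snoRNA, was the least abundant host at low density except with RM. It had 8 reads in LD (13.2 TPM), 8 with IL-6 (28.8 TPM), 5 with IL-8 (8.95 TPM), 31 with RM (42.7 TPM) and 0 at HD. The RM library stood above the other 4, with a read share 4.45-fold that of LD (2 to 11.2) and a log2(TPM + 1) difference of 1.63. RM was the only library in which SNHG8 exceeded both GAS5 and SNHG1 in TPM. In IL-8 the difference of -0.51 turned to 0.18 after median-ratio normalization. In HD the 0 reads were not distinguishable from LD at this depth, since the interval of the ratio reached 2.14-fold.

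The snoRNAs themselves could not be followed. All 16 entries for snoRNAs encoded in the 5 hosts were listed at 0 reads in every library, and of 324 entries for SNORD and SNORA genes 27 had any read, with 343 reads in all.

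NEAT1 was the most heavily sequenced of the 9 RNAs, with 1425 reads in LD, 1604 with IL-6, 1120 with IL-8, 1512 with RM and 201 at HD. Its level was 45.6 TPM in LD, 74.7 with IL-6, 48.1 with IL-8, 50.0 with RM and 37.9 at HD. IL-6 was the highest library, and its counting interval (71.1 to 78.5 TPM) lay above those of the other 4, which ran from 32.9 to 52.6 TPM. The NEAT1 read share was 1.68-fold that of LD with IL-6 (1.57 to 1.81), 1.15-fold with IL-8 (1.07 to 1.25), 1.22-fold with RM (1.13 to 1.31) and 0.516-fold at HD (0.443 to 0.599). NEAT1 stayed above LD with IL-6, IL-8 and RM under every scaling tried, while the HD difference of -0.26 on the log2(TPM + 1) scale ranged from -0.95 to 0.12 over the scalings, the highest value being that of CPM of all reads.

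The transcript length behind a TPM value follows from its ratio to the read count. This ratio was calibrated on 58 to 144 genes per library with a single GENCODE transcript, 64.6 to 72.4% of which lay within 20% of the median. The implied length of NEAT1 was 21777 to 22965 bases, beside its longest GENCODE transcript of 22743 bases. NEAT1 is also made as a much shorter polyadenylated isoform, and the deposited values do not separate the isoforms. The RNA had been selected with oligo-dT, and the effect of this selection on the isoforms read was not tested. On a transcript of 3524 bases, another GENCODE entry for NEAT1, the same reads would be 293 TPM in LD, 484 with IL-6, 313 with IL-8, 320.4 with RM and 234 at HD. The place of NEAT1 among the 9 RNAs in TPM, which was 4 or 5 in the 5 libraries, therefore depends on the isoform assumed, and at HD NEAT1 would then stand above SNHG5 at 189 TPM. For SNHG5 the implied length was 412 to 436 bases and for AGAP2-AS1 1494 to 1518 bases in the libraries with reads, while SNHG1 was at 1066 to 1102 bases in LD, IL-6 and RM and at 490 with IL-8. SNHG8 was at 441 bases in LD and 295 with IL-6, which gave unlike TPM values to the same 8 reads. GAS5 ranged from 576 bases with IL-6 to 779 at HD.

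TUG1 had 124 reads in LD, 65 with IL-6, 28 with IL-8, 70 with RM and 7 at HD. Its level was 14.3 TPM in LD, 12.2 with IL-6, 4.6 with IL-8, 8.34 with RM and 3.77 at HD. LD was highest, and IL-8 and HD were lowest with overlapping intervals. The read share was 0.332-fold that of LD with IL-8 (0.212 to 0.503), 0.648-fold with RM (0.476 to 0.875) and 0.207-fold at HD (0.0814 to 0.438), whereas the interval of IL-6 (0.571 to 1.07) included equal shares. With RM the log2(TPM + 1) difference of TUG1 was -0.71 and became -0.024 after median-ratio normalization.

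AGAP2-AS1 came next after SNHG5 in TPM in LD, IL-6, IL-8 and RM and had no read at HD. It had 672 reads in LD (326 TPM), 171 with IL-6 (121 TPM), 547 with IL-8 (356 TPM) and 480 with RM (239.9 TPM). IL-6 stood below the other 3 low-density libraries, with a read share 0.38-fold that of LD (0.32 to 0.45) and a log2(TPM + 1) difference of -1.43. The IL-8 share was 1.2-fold (1.07 to 1.34) and the RM share 0.819-fold (0.727 to 0.923), the latter above LD by 0.31 log2 units after median-ratio normalization. With 0 of 449661 reads outside RNA5-8S5, the exact 95% upper limit at HD was 8.2 CPM against 408 CPM in LD, and the interval of the HD to LD ratio reached up to 0.0201-fold. CPM here is the read count per 1000000 reads outside RNA5-8S5.

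The partner gene AGAP2, which encodes a GTPase with an Arf-GAP domain, followed another order. AGAP2 had 12 reads in LD, 11 with IL-6, 6 with IL-8, 585 with RM and 14 at HD, so RM (87.9 TPM) stood apart from the other 4 libraries (1.11 to 11.2 TPM). Together the pair had 416 CPM in LD, 165 with IL-6, 493 with IL-8, 742 with RM and 31.1 at HD. The library preparation did not mark strand, so reads from the 866 exonic bases that both genes share cannot be told apart.

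TSC22D1-AS1 had no read in LD, IL-6 or IL-8, 44 reads with RM (11.3 TPM) and 9 at HD (12.02 TPM). Against the 0 reads of LD, the exact 95% interval of the read share ratio began at 13.1-fold with RM and at 7.22-fold at HD. TSC22D1, which encodes a leucine zipper protein induced by TGF-beta, had 90 reads in LD, 103 with IL-6, 34 with IL-8, 59 with RM and 13 at HD. As read shares TSC22D1 was at 54.7 CPM in LD, 93.6 with IL-6, 30.3 with IL-8, 41.1 with RM and 28.9 at HD, so the libraries with TSC22D1-AS1 reads were not those with the most TSC22D1 reads. TSC22D1-AS1 and TSC22D1 also share exonic bases, and the same limit on strand holds.

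**Figure D2:**
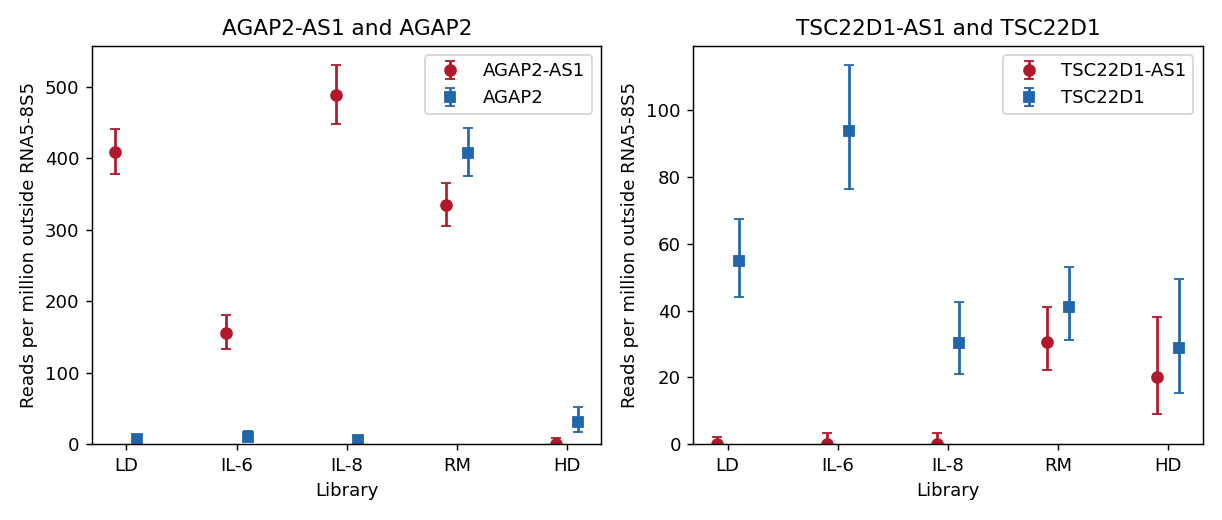
CPM (reads per 1000000 outside RNA5-8S5) on the vertical axis for AGAP2-AS1 with AGAP2 (left) and TSC22D1-AS1 with TSC22D1 (right), 1 point per library, with exact 95% Poisson intervals as bars. AGAP2 reaches 408 CPM with RM and is at or below 31.1 CPM elsewhere, and TSC22D1-AS1 has reads with RM and HD but none in the other 3 libraries.

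The differences from LD were counted with a threshold of 1 log2 unit on the log2(TPM + 1) scale, beside the 21163 genes that reached 1 TPM in any library. The 9 RNAs passed this filter. The 4 comparisons share the LD library. In IL-6, 1 of the 9 RNAs was lower, AGAP2-AS1, against 7.47% of all genes, and 1 was higher, SNHG8, against 9.84%. In IL-8, TUG1 and SNHG6 were lower, against 16.4% of all genes, and SNHG1 was higher, against 7.99%. In RM, GAS5 and SNHG5 were lower, against 20.4% of all genes, and SNHG8 and TSC22D1-AS1 were higher, against 6.44%. These shares count genes that reached 1 TPM at HD alone. With 1 TPM required in a low-density library, they were 11.1% lower and 14.6% higher with IL-6. They were then 24.3 and 11.9% with IL-8, and 30.3 and 9.55% with RM. The median over the 9 RNAs was 0.03 with IL-6. With IL-8 it was -0.51, the value of SNHG8 on 5 reads against 8, and became -0.10 on CPM outside RNA5-8S5 and 0 after median-ratio normalization. With RM it was -0.33, or 0.40 after median-ratio normalization. The median over all genes was 0 in these 3 comparisons and under every other scaling tried. The genes counted include those that reached 1 TPM at HD alone, so this 0 is no measure of a typical gene read at low density. On CPM outside RNA5-8S5, which does not use transcript length, AGAP2-AS1 with IL-6, TUG1 with IL-8 and SNHG8 and TSC22D1-AS1 with RM stayed past the threshold, and SNHG8 with IL-6, SNHG6 and SNHG1 with IL-8 and GAS5 and SNHG5 with RM did not. The background on that scale was 9.41% lower and 13.1% higher with IL-6, 18.8 and 10.5% with IL-8, and 23.1 and 8.63% with RM.

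In HD, 5 of the 9 RNAs were lower than in LD, namely SNHG5, SNHG1, SNHG8, TUG1 and AGAP2-AS1, against 17.9% of all genes. Of these, SNHG8 and SNHG1 had 0 and 2 reads at HD, and the SNHG8 difference was not detectable at this depth. TSC22D1-AS1 was higher, as were 61.9% of all genes. The median over the 9 RNAs was -1.68, while that over all genes was 1.86 (0.85 to 2.94 under the other scalings), and the members had the same split on CPM outside RNA5-8S5, where 23.6% of genes were lower and 57.9% higher. The background counts genes that reached 1 TPM at HD alone, and with 1 TPM required in a low-density library it was 26.5% lower and 43.9% higher. Among genes with at least 10 reads in all 5 libraries it was 29% lower and 33.9% higher. With members at 0 reads placed at the floor of 3 reads, the median of the log2 ratio of read shares was -0.95. Fewer cells of a type and less RNA per cell cannot be told apart in such bulk libraries.

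**Figure D3:**
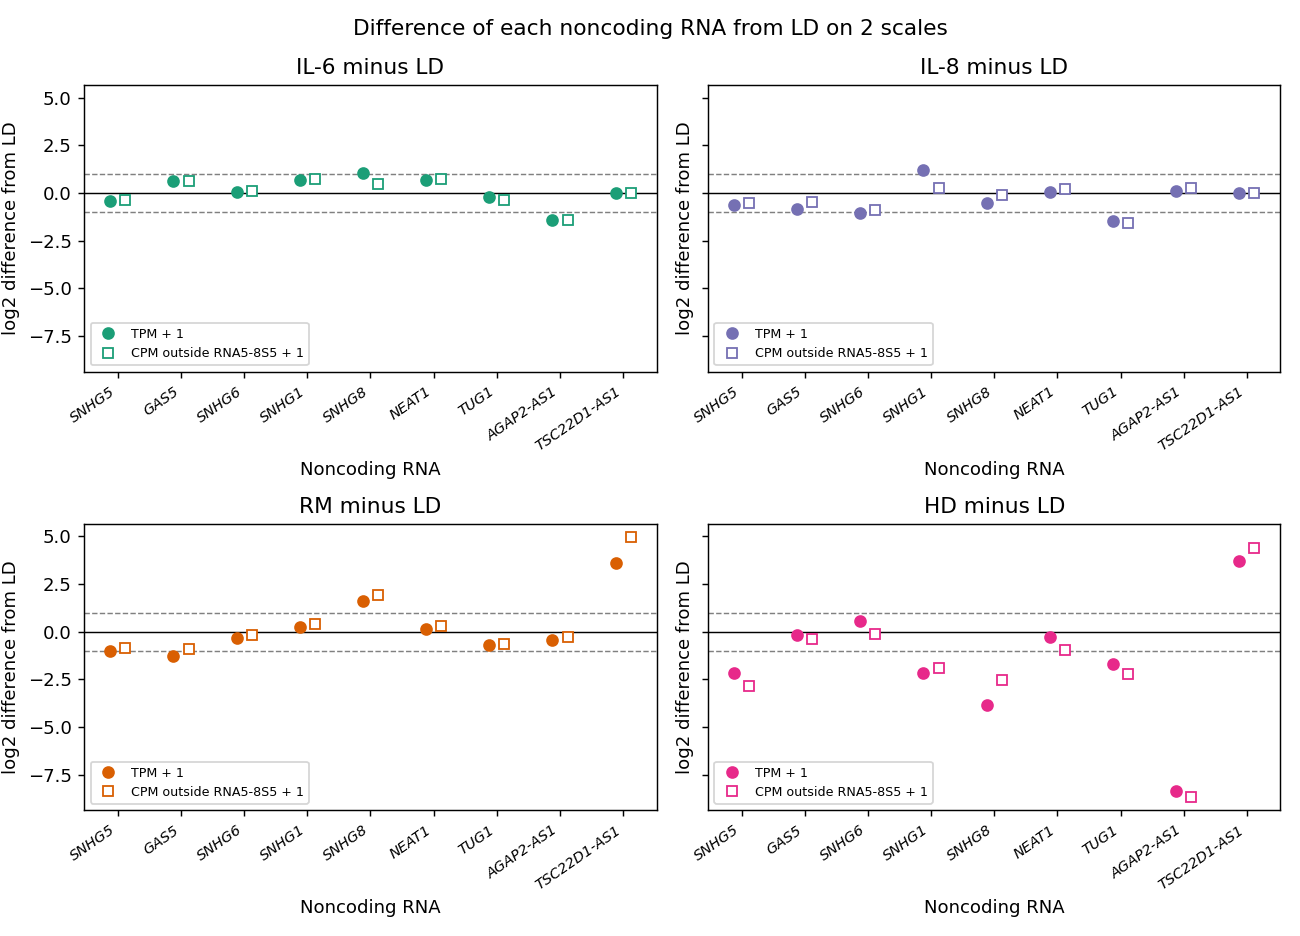
Difference of each of the 9 RNAs from LD in log2 units, 1 panel per comparison, with filled circles for log2(TPM + 1), open squares for log2(CPM outside RNA5-8S5 + 1) and dashed lines at 1 unit either way. Both scales place AGAP2-AS1 below the line with IL-6 and HD and TSC22D1-AS1 above it with RM and HD, whereas SNHG1 with IL-8 passes it in TPM and not in CPM.

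The ratio of NEAT1 to the 5 hosts sets an RNA known as nuclear against RNAs known to be exported, inside each library, so that no library scaling moves it. Where these RNAs lay in the cells was not measured here. NEAT1 had 2.19 reads per host read in LD (95% exact interval 1.99 to 2.41), 4.01 with IL-6 (3.59 to 4.49), 3.52 with IL-8 (3.11 to 4.002), 3.99 with RM (3.56 to 4.48) and 4.47 at HD (3.22 to 6.32). LD was the lowest library and its interval overlapped none of the others, while those of the other 4 overlapped one another. In TPM the log2 ratio was above LD by 0.94 with IL-6, 0.69 with IL-8, 0.95 with RM and 1.18 at HD. SNHG5 held 42.2 to 77.9% of the host reads. With SNHG5 left out, a choice made after the values were seen, NEAT1 had 9.9 reads per host read in LD (8.33 to 11.8), 11.5 with IL-6 (9.7 to 13.8), 14.7 with IL-8 (11.7 to 18.8), 11.5 with RM (9.65 to 13.9) and 7.73 at HD (5.12 to 12.1). Without SNHG5 the interval of LD overlapped that of each other library, and the HD ratio was below that of LD. With the median of each class in place of the sum, the HD ratio was also below LD, by -0.088 log2 units.

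**Figure D4:**
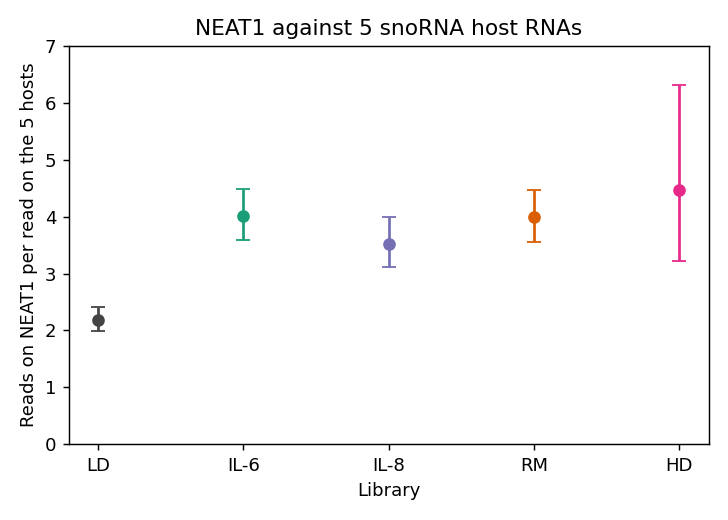
Reads on NEAT1 per read on GAS5, SNHG1, SNHG5, SNHG6 and SNHG8 together (vertical axis, linear from 0), 1 point per library, with exact 95% intervals for counting error. The LD point at 2.19 lies below the intervals of the other 4 libraries.

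Other genes of the same pathways were read from lists, on the log2(TPM + 1) scale. Their counts stand beside shares of all genes of 9.84% higher and 7.47% lower with IL-6, 7.99 and 16.4% with IL-8, 6.44 and 20.4% with RM, and 61.9 and 17.9% at HD. With 1 TPM required in a low-density library these shares were larger, as given above, except the higher share at HD, which was smaller. Of 12 other noncoding snoRNA hosts measured, 2 were higher and 0 lower than LD with IL-6, 1 and 3 with IL-8, 4 and 4 with RM, and 4 and 3 at HD, where the list median was 0.32. Among them SNHG17 went from 32.2 TPM in LD to 103 with IL-6, and ZFAS1, which like GAS5 hosts box C/D snoRNAs, from 67.3 TPM in LD (65 reads) to 0 reads at HD. SNHG15 was at 14.8 TPM in LD, 0.613 with IL-8 and 125 at HD, on 16, 2 and 8 reads. As read shares these were 9.72, 1.78 and 17.8 CPM, a smaller rise at HD than in TPM. Of 9 neighbouring or partner genes listed for the members, AGAP2 and TSC22D1 included, 0 were higher and 1 lower with IL-6, 0 and 1 with IL-8, 2 and 3 with RM, and 4 and 3 at HD.

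Of 16 protein-coding snoRNA hosts, mostly ribosomal proteins and translation factors, none passed the threshold in either direction with IL-6, 1 was lower with IL-8 and 2 were lower with RM. In HD 14 were lower and 0 higher, with a median of -2.19. On CPM outside RNA5-8S5 the HD median was -2.91 for these genes and -1.91 for the 5 noncoding hosts. TPT1, which encodes a translationally controlled protein, went from 3734 TPM in LD to 236 at HD, and RPS3 from 5267 to 1227. Among 11 core snoRNP proteins, which bind snoRNAs, 1 was lower with IL-6, 2 with IL-8, 4 with RM and 8 at HD, where 1 was higher, with FBL, the methyltransferase fibrillarin, at 628 TPM in LD, 923 with RM and 85.7 at HD.

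Of 10 factors of nonsense-mediated decay, 1 was lower and 0 higher with IL-6, 1 lower and 1 higher with IL-8, 2 lower and 2 higher with RM, and 5 lower and 2 higher at HD. SMG5 was at 36.1 TPM in LD and 116 with RM, and SMG8, a regulator of the kinase SMG1, at 22.3 TPM in LD and 2.49 to 4.14 in the other libraries. Of 11 paraspeckle proteins, none passed the threshold with IL-6 or IL-8, 2 were higher and 2 lower with RM, and 7 were lower at HD. NONO, a core paraspeckle protein, was at 186 TPM in LD, 144 with IL-6, 97.0 with IL-8, 471 with RM and 44.9 at HD. Of 14 nuclear speckle proteins, 0 passed with IL-6, 2 were lower with IL-8, 3 with RM and 9 at HD, and none was higher. On CPM outside RNA5-8S5 the HD counts were 16 lower for the protein-coding hosts, 9 for the paraspeckle, 12 for the speckle and 7 for the decay proteins, 1 higher for the other noncoding hosts and 0 higher for the decay and snoRNP proteins.

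Of 16 other long noncoding RNAs measured, 1 was higher and 3 were lower with IL-6, 3 and 2 with IL-8, and 1 and 5 with RM. In this list 12 were higher at HD than in LD and 2 were lower. Of the 12, HOTAIR, H19 and MEG3 reached 1 TPM at HD alone, on 1, 3 and 16 reads, so the filter itself selected them for a high HD value. KCNQ1OT1, a long unspliced nuclear RNA of the KCNQ1 locus, had 274 reads in LD and 2318 at HD, or 2.07 and 104 TPM. LINC00152, a cytoplasmic RNA, was at 395 TPM in LD, 336 with IL-6, 862 with IL-8, 362 with RM and 425 at HD, with the highest mean TPM of this list. As a read share LINC00152 was at 168 CPM in LD, 342 with IL-8 and 100 at HD, so HD was below LD on that scale.

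**Figure D5:**
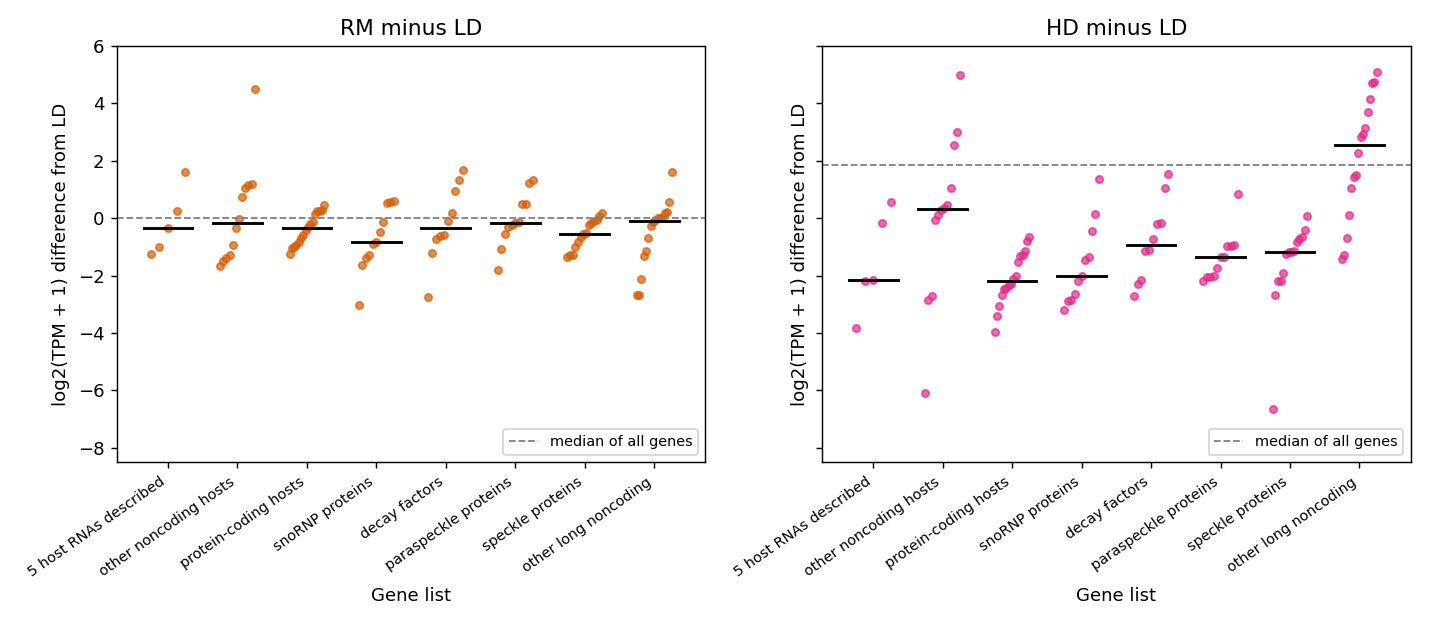
Difference from LD on the log2(TPM + 1) scale for each gene (points) of 8 lists with RM (left) and HD (right), with the list median as a bar and the median of all genes as a dashed line. In HD the protein-coding and the 5 noncoding hosts have medians of -2.19 and -2.15 on this scale, the latter being SNHG1 on 2 reads, below the all-gene median of 1.86.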

How the data were processed

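Each library was RNA of HT1080 cells from a collagen matrix, selected with oligo-dT, amplified as a cDNA pool with phi29 polymerase and prepared with Nextera XT, which does not mark strand. The submitters' processing notes name CASAVA 1.4, Bowtie2 2.3.1, RSEM 1.2.25 and GRCh37 (hg19), without their settings. The annotation is not given in the sources used here. The authors deposited a whole-number read count per gene, without normalization. They also deposited a TPM value per gene, which accounts for the length of the transcript and the size of the library. The deposited TPM summed to 934821 to 978521 per library and was rescaled to 1000000. Depth was 926376 to 7118545 reads, 449661 to 1645539 of them outside RNA5-8S5. Samples were grouped by their titles.

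The members and gene lists were chosen with earlier results of these data known. By rule, the text could name the 10 members, RNA5-8S5, and of each list the gene with the highest mean TPM and those with the largest rise or fall from LD (at least 10 reads in 1 of the libraries), up to 3, and the 3 profiles nearest to GAS5. The marker genes, TERC, HOTAIR, H19, MEG3 and the partners of the antisense RNAs were named outside it, after their values were seen. No test was run, since each condition had 1 library; a difference of 1 log2 unit of TPM + 1 was counted among genes with at least 1 TPM in 1 or more libraries. Intervals are 95% exact Poisson for counts and exact conditional binomial for ratios, and 3 reads were the floor. Alternatives were pseudocounts of 0.1 and 5, CPM of all reads or of reads outside RNA5-8S5, median-ratio normalization, TPM as deposited, a threshold of 2 log2 units and other filters. The counting and intervals were tested on simulated Poisson counts only, with planted changes larger than the threshold in well-read genes. Amplification noise and members with few reads were not covered by it. Versions were 3.11.15 for Python, 2.4.6 for numpy, 2.3.3 for pandas, 1.17.1 for scipy and 3.10.9 for matplotlib.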

Additional observations from a re-analysis of the deposited data

How the results depend on the processing

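With 1 library per condition, nothing here measures variation between cultures, and depth limits HD most, where SNHG1 had 2 reads and SNHG8 and AGAP2-AS1 had 0. No paired analysis was possible because each condition was 1 library and the labels carry no replicate numbers. Counts of members past the threshold moved with the setting as follows. In IL-6 the 1 higher member became 0 with a pseudocount of 5, CPM of all reads, CPM outside RNA5-8S5, median-ratio normalization and a threshold of 2 log2 units, and the 1 lower member became 0 with the threshold of 2. In IL-8 the 2 lower members became 1 with a pseudocount of 5, both CPM scales and median-ratio normalization and 0 with the threshold of 2, and the 1 higher member became 0 with both CPM scales, median-ratio normalization and the threshold of 2. In RM the 2 lower members became 1 with a pseudocount of 5 and with TPM as deposited, and 0 with both CPM scales, median-ratio normalization and the threshold of 2. The 2 higher members in RM became 1 with the threshold of 2, and 3 with median-ratio normalization, where SNHG1 was at 1.002. At HD 4 or 5 members were lower and 1 was higher in every setting. The median member difference in RM, -0.33, became 0.40 with median-ratio normalization. The ratio of NEAT1 to the hosts, relative to LD, became 0.38 in IL-6 and -0.088 in HD with the median of each class in place of the sum, and 0.26 in IL-6, 0.34 in RM and -0.29 in HD without SNHG5. Leaving MALAT1 out was planned as an alternative for this ratio and coincides with the value reported. Among genes with at least 10 reads in all 5 libraries, 29% were lower and 33.9% higher in HD than in LD, against 17.9 and 61.9% in the filter used. With 1 TPM required in a low-density library, a filter chosen after seeing the data, the HD shares were 26.5 and 43.9%. Among the genes with at least 10 reads in all 5 libraries, 4.81% were lower and 6.53% higher in IL-6, against 7.47 and 9.84%. Of 216 recomputed member differences, 0 of those past the threshold in the reported setting changed direction. The cause of these changes was not tested.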

Other observations

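RMRP and RPPH1, RNA subunits of RNase MRP and RNase P that carry no poly-A tail, were read in all 5 libraries. RPPH1 was at 648 TPM in LD (226 reads), 659 with IL-6 (159), 1039 with IL-8 (270), 2308 with RM (780) and 3861 at HD (229). RMRP was at 1726 TPM in LD, 1058 with IL-6, 2049 with IL-8, 2611 with RM and 3916 at HD. In TPM, RPPH1 was thus higher with RM than in LD by 1.83 log2 units and at HD by 2.57, with no replicate to set this against. RMRP was higher at HD by 1.18, where the median over all genes was 1.86 and 61.9% of genes were higher. As reads outside RNA5-8S5, RPPH1 was at 137 CPM in LD, 544 with RM and 509 at HD. RMRP was at 256, 429 and 360 CPM, so both were lower at HD than with RM on that scale. TERC, the RNA of telomerase, had 0 or 1 read in each library.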
